A study of Mus musculus with 23 samples.

Results

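The 35 genes of an immediate early and stress response list were followed through 16 single-cell expression libraries of wild-type (WT) mice and of mice in which a tyrosine of the SH2 domain of STAT5B, a cytokine-activated transcription factor, is changed to phenylalanine (Y665F) or histidine (Y665H). The 35 genes were taken as a list of gene symbols from the 32285 genes of the deposited tables. All 35 were present in the tables. The question was whether their levels followed the Stat5b genotype or single libraries, since these genes also respond to the way in which tissue is handled.

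Immediate early genes are switched on within minutes of a stimulus, without new protein synthesis, because the factors that drive them (SRF with its ETS partners, CREB and NF-kB) are already in the cell and only need to be phosphorylated or released. Their products fall into AP-1 subunits, EGR and NR4A transcription factors, and a set of brakes, such as the dual-specificity phosphatases that switch MAP kinases off and the ZFP36 proteins that speed up decay of short-lived mRNAs. In blood cells they report antigen receptor, cytokine and stress signals, and they are also raised when tissue is dissociated into single cells.

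Bone marrow (BM) gave 6 libraries, 2 each from WT, Y665H and Y665F mice. Lymph node (LN) gave 7 libraries, of which 2 were WT, 3 were heterozygous (het) and 2 homozygous (homo) for Y665F. Spleen gave 3 libraries, 1 each of WT, Y665H and Y665F, made by the study's account from CD45+ cells (white blood cells), each combined from 3 mice by a legend on spleen whose wording also names lymph nodes. The mice are C57BL/6 in the labels and C57BL/6N in the methods, and were 2 months old. By the study's methods the Y665H allele was made by base editing and the Y665F allele by Cas9 with a donor oligonucleotide, so that the change is germline and present in every cell. The labels of BM and spleen do not give the number of mutant alleles, the counts do not show the point mutation, and nothing in the labels says that 2 libraries of one group came from separate mice, so that p-values measure only the spread between these libraries. Levels are given as CPM, the unique molecular identifiers (UMIs) of a gene scaled to 1000000 UMIs of the library or of the class of cells named.

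The promoters of 28 of the 35 genes were held in the RefSeq table used here (build GRCm38.p6, 250 bases before to 50 bases after the annotated start). Egr1, Egr3, Ier2, Nfkbiz, Cd69, Crem and Myc had none there. Sequences are shown for 3 genes followed below that carry a classical immediate early element. Of these, Btg2 and Dusp5 were called in some of the tests below and Dusp1 in none. The cyclic AMP response element TGACGTCA, which binds CREB and ATF proteins, was found on either strand in 3 of the 28 (10.7%; Btg2, Dusp1 and Ppp1r15a) and in 2.03% of all 27025 promoters. Its part TGACG, which the full element also contains, was found in 17 of the 28 (60.7%) and in 23.0% of all promoters. The CArG box, which binds SRF, was found in 3 (10.7%; Egr2, Dusp5 and Zfp36) and in 1.81% of all, and the NF-kB site in 8 (28.6%) and in 9.50% of all. A match is a description of these letters and no evidence of binding. In the following sequences, written 5′ to 3′ on the strand of the gene, capitals mark the full cyclic AMP response element in Btg2 (chr1:134079106-134079405, minus strand, beginning 166 bases before the start) and in Dusp1 (chr17:26508423-26508722, minus strand, 143 bases before), and a pair of CArG boxes in Dusp5 (chr19:53528895-53529194, plus strand, beginning 82 and 72 bases before).
Btg2: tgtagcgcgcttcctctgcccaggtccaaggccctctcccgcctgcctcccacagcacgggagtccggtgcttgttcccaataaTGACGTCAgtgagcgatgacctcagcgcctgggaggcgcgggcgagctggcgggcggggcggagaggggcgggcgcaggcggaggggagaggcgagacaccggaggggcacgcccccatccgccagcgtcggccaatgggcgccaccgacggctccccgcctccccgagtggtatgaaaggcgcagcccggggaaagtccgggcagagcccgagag
Dusp1: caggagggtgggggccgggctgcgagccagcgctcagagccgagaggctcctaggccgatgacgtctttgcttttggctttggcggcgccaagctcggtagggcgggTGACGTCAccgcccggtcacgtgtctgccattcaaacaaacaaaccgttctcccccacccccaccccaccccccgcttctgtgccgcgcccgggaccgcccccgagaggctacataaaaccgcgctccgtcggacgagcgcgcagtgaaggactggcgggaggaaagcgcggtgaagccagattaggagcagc
Dusp5: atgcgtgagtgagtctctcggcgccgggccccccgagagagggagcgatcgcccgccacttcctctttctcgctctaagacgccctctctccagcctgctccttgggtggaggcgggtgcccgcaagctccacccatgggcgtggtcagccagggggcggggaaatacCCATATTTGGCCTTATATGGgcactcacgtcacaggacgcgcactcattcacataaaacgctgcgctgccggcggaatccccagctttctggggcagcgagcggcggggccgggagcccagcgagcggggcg

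The barcodes kept numbered 4237 to 18711 in BM, 4604 to 9216 in LN and 5028 to 8018 in spleen. Their median UMI count was 1626 to 2872 in BM and 5121.5 to 6707.5 in spleen. In LN it ran from 410 (het replicate 3) and 436 (homo replicate 1) to 3119 (het replicate 1). Libraries of one tissue shared cell barcodes at 1.54 to 2.89% of the smaller library in BM, 0.564 to 1.56% in LN and 0.133 to 0.342% in spleen. Replicate libraries differed well beyond sampling noise. In BM, Xist was at 704, 237 and 884 CPM in replicate 1 of WT, Y665H and Y665F and at 0.109, 0.116 and 0.587 CPM in replicate 2, and the summed Y-linked genes were at 66.8, 64.1 and 109 CPM in replicate 2 and at most 0.0900 CPM in replicate 1. Replicate 1 of each genotype in BM was therefore female by expression and replicate 2 male, whereas the methods describe male mice. In every BM comparison sex, replicate number and library cannot be told apart, and each genotype holds 1 of each. All LN and spleen libraries had Xist at or under 0.0991 CPM. The neutrophil gate held only 2 and 5 (WT), 13 and 5 (Y665H) and 155 and 94 (Y665F) cells in the BM libraries. Neutrophils, a main cell type of marrow, were therefore not tested there. Over the whole BM libraries 8 neutrophil markers summed to 39.1 to 3499 CPM, 4 platelet and megakaryocyte markers to 110 to 791 CPM and 4 hemoglobin genes to 16.4 to 116 CPM. Mature cells were thus few, and marrow below means the cells of these libraries.

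The 35 genes took a small share of the UMIs in each tissue. It was 0.752 to 0.869% in the 7 LN libraries, with WT at 0.783 and 0.869%, het at 0.756, 0.752 and 0.788% and homo at 0.802 and 0.868%. In spleen it was 0.486% in WT, 0.551% in Y665H and 0.373% in Y665F. In BM it was 0.0995 and 0.151% in WT, 0.114 and 0.125% in Y665H and 0.130 and 0.200% in Y665F (replicates 1 and 2). Replicate 2 was the higher library in each BM genotype. Y665F replicate 2 had the highest share in marrow, and the remaining Y665F library lay between the WT pair. Levels are not compared between tissues, since they were prepared as separate libraries with different sorting and the labels and the methods name different library kits. Cell barcodes shared between an LN and a BM library were 0.588 to 2.86% of the smaller library, and at most 0.0731% between a spleen library and one of LN or BM.

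Many of the genes differed between replicate libraries in BM. Of the 35 genes, 22 were higher in replicate 2 than in replicate 1 in all 3 genotypes, against 7.43% of 13870 genes with at least 50 UMIs over the 6 libraries. The 9 genes called higher in Y665F below were all among the 22, so that their levels went with both library and genotype. Also among the 22 were Nr4a1, Dusp1 and Fos, whose mRNAs rise quickly after many stimuli. Nr4a1, an orphan nuclear receptor that antigen receptor signals induce, was at 2.79 and 23.7 (WT), 9.50 and 25.2 (Y665H) and 16.4 and 60.3 (Y665F) CPM. Dusp1, the phosphatase that inactivates p38 and JNK, was at 8.62 and 32.2 (WT), 17.6 and 26.4 (Y665H) and 18 and 50.8 (Y665F) CPM. Fos, the AP-1 subunit, was at 49.5 and 115 (WT), 74.1 and 100.2 (Y665H) and 78.9 and 200.4 (Y665F) CPM. For each of the 3 genes WT replicate 2 lay above Y665F replicate 1, so that the genotypes overlapped. Atf3, a stress-induced ATF factor, was at 0.248 and 1.99 (WT), 0.390 and 1.85 (Y665H) and 0.324 and 1.78 (Y665F) CPM, so that its level followed the replicate alone.

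The size of the library difference in each genotype is a description with no test. More than 2-fold higher in replicate 2 were 8 of the 35 genes in WT, 2 in Y665H and 10 in Y665F, against 0.743, 0.26 and 0.425% of all genes. The median of the log2 ratio of replicate 2 to replicate 1 over the 35 genes was 0.47 in WT, 0.29 in Y665H and 0.64 in Y665F, against -0.29, -0.05 and 0.05 over all genes. Nfkbia, which encodes the inhibitor that holds NF-kB in the cytoplasm, went the other way, at 95.2 and 48.5 (WT), 146 and 41.4 (Y665H) and 60.6 and 41.8 (Y665F) CPM. It was the only one of the 35 genes more than 2-fold lower in replicate 2 in any genotype, in Y665H.

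**Figure D1:**
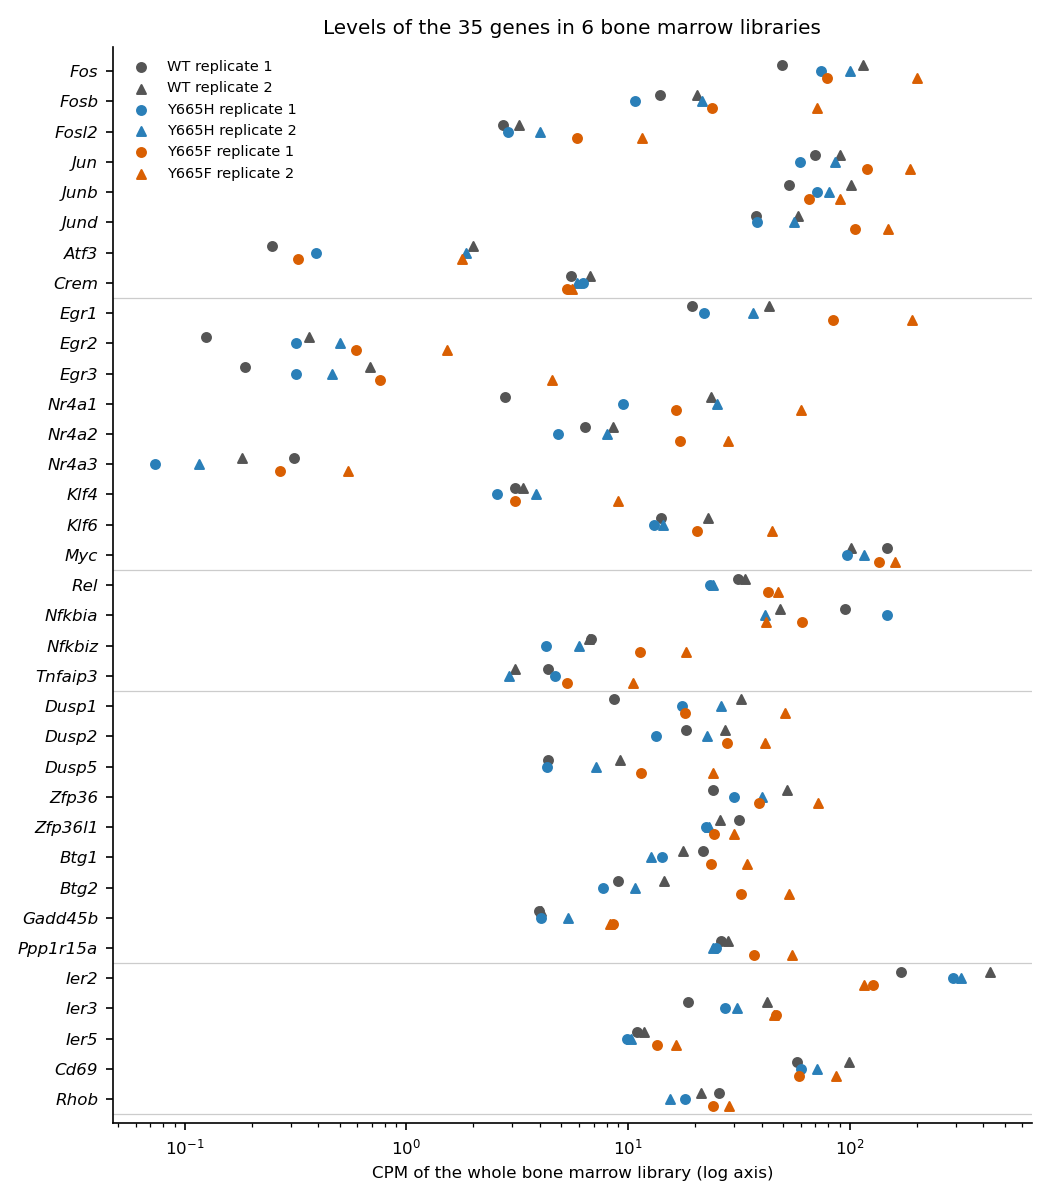
Level of each of the 35 genes in the 6 BM libraries, in CPM of the whole library on a log axis, with circles for replicate 1 (Xist high), triangles for replicate 2 (Y-linked genes present) and lines between the groups of genes by role. Triangles lie to the right of circles of the same colour for most genes, both Y665F symbols lie to the right of the WT symbols for 19 genes, and Ier2 is the gene for which both Y665F symbols lie to the left.

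Beside these library differences, 10 of the 35 genes passed the test between Y665F and WT in BM (edgeR quasi-likelihood test, Benjamini-Hochberg adjusted p under 0.05 and log2 fold change beyond 1 in size). Of these 9 rose (Egr1, Egr2, Egr3, Btg2, Nr4a2, Fosl2, Fosb, Jund and Dusp5), 1 fell (Ier2) and 25 were not called. Over all 13923 genes tested 16.8% were called, 8.1% higher and 8.66% lower, so the higher calls were 9 of 35 against that share and the lower calls 1 of 35. The median log2 fold change was 0.55 over the 35 genes and 0.04 over all genes, and 28 of the 35 (80.0%) were higher against 52.0% of all genes. Without Y665F replicate 2 the median was 0.10, with 19 of 34 genes higher, and without WT replicate 2 it was 1.10. Both Y665F libraries lay above both WT libraries for 19 of the 35 genes, against 40.4% of all genes, and below for 1, against 24.3%. Marrow is a mixture, and more cells of a type that expresses a gene cannot be told apart here from more of its RNA per cell. The stem gate took 13.4 and 7.96% of the barcodes in WT, 5.69 and 4.02% in Y665H and 27.9 and 29.3% in Y665F, and the erythroid gate 20.7 and 30.4%, 39.6 and 38.0%, and 9.20 and 7.09%.

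The EGR, NR4A and KLF factors with Myc had the largest median among the groups by role, 1.20 over 9 genes, of which 4 rose. Egr1, a zinc-finger factor driven by ERK and SRF, was at 19.4 and 43.4 (WT), 21.9 and 36.5 (Y665H) and 84.3 and 191 (Y665F) CPM. Both Y665F libraries exceeded all 4 others, and the log2 fold change against WT was 1.88 ± 0.41 (SE; adjusted p = 0.00399). Egr3 was at 0.186 and 0.688 (WT), 0.317 and 0.463 (Y665H) and 0.756 and 4.53 (Y665F) CPM, and Egr2 at 0.124 and 0.362, 0.317 and 0.502, and 0.594 and 1.52 CPM. These are low levels, and their log2 fold changes were 2.22 ± 0.71 (adjusted p = 0.0277) and 1.75 ± 0.63 (adjusted p = 0.0463). Nr4a2 was at 6.38 and 8.55 (WT), 4.82 and 8.07 (Y665H) and 17.1 and 28.1 (Y665F) CPM, a log2 fold change of 1.38 ± 0.32 (adjusted p = 0.00497). Nr4a1, whose values are given above, had a log2 fold change of 1.20 ± 0.70 that missed the threshold (adjusted p = 0.199). Myc, a transcription factor of cell growth, was at 147 and 101 (WT), 97.6 and 115 (Y665H) and 136 and 159.7 (Y665F) CPM, and the groups overlapped.

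Of the 8 AP-1, ATF and CREM genes 3 rose, with a median of 0.62. Jund, the AP-1 subunit that resting cells also hold, was at 37.6 and 58.5 (WT), 38.1 and 56.3 (Y665H) and 105 and 149 (Y665F) CPM, a log2 fold change of 1.19 ± 0.30 (adjusted p = 0.00787). Fosl2, a late FOS-family subunit, was at 2.73 and 3.22 (WT), 2.87 and 4.01 (Y665H) and 5.85 and 11.5 (Y665F) CPM (1.33 ± 0.34, adjusted p = 0.00877). Fosb was at 13.9 and 20.5, 10.8 and 21.7, and 23.8 and 71.1 CPM (1.24 ± 0.42, adjusted p = 0.0341). For these 3 genes the Y665F libraries lay above the WT and Y665H libraries. Jun was at 69.9 and 90.1 (WT), 59.4 and 85.8 (Y665H) and 119 and 187 (Y665F) CPM, also without overlap, but did not pass (0.73 ± 0.28, adjusted p = 0.0592). Junb was at 53.4 and 101, 71.1 and 80.9, and 65.5 and 90.1 CPM and Fos is given above, and for both the groups overlapped (adjusted p = 0.611 and 0.367).

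Among the 9 phosphatases, RNA-decay factors and growth brakes 2 rose, with a median of 0.47. Btg2, an antiproliferative protein that recruits the deadenylase complex, was at 8.99 and 14.6 (WT), 7.67 and 10.7 (Y665H) and 32.2 and 53.1 (Y665F) CPM. Its log2 fold change was 1.63 ± 0.31 (adjusted p = 0.00181), the smallest adjusted p among the 35 genes in the whole libraries. Dusp5, a nuclear phosphatase for ERK, was at 4.34 and 9.16, 4.31 and 7.18, and 11.4 and 24.2 CPM (1.14 ± 0.40, adjusted p = 0.0411). Gadd45b had an adjusted p of 0.0214 at a log2 fold change of 0.88, which is inside the limit on size. Zfp36, which destabilises cytokine mRNAs, was at 24.1 and 51.9 (WT), 29.9 and 40.2 (Y665H) and 39.0 and 71.6 (Y665F) CPM, and like Dusp1 it overlapped between groups (adjusted p = 0.546 and 0.501).

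None of the 4 NF-kB genes was called (median 0.61), although Nfkbiz (0.95, adjusted p = 0.0176) and Tnfaip3 (0.93, adjusted p = 0.0409) had an adjusted p under 0.05. Nfkbia had a log2 fold change of -0.61 ± 0.40 (adjusted p = 0.257). Rel, an NF-kB subunit, was at 31.4 and 33.6 (WT), 23.4 and 24 (Y665H) and 42.7 and 47.4 (Y665F) CPM and was not called.

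In the remaining group of 5, 3 were higher, with a median of 0.0007, and the 1 call was the fall of Ier2. Ier2, a nuclear protein induced by growth factors, was at 169.7 and 430.1 (WT), 293 and 317 (Y665H) and 128 and 116 (Y665F) CPM. Both Y665F libraries were below all 4 others, with a log2 fold change against WT of -1.54 ± 0.38 (adjusted p = 0.00753). It was also the most abundant of the 35 genes in the WT and Y665H libraries. Cd69, an early activation antigen of lymphocytes, was at 57.8 and 99.5 (WT), 60.1 and 71.1 (Y665H) and 58.7 and 86.9 (Y665F) CPM, with overlap (adjusted p = 0.403).

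Because each genotype held 1 female and 1 male library, Y665F was also set against WT within each pair, as values with no test. The median log2 ratio over the 35 genes was 0.60 in the female and 0.93 in the male pair, against 0.01 and 0.36 over all genes, and 24 genes were higher and 3 lower in both pairs. Egr1 differed alike in both, at 2.09 and 2.12. The same held for Btg2 (1.79 and 1.83), Jund (1.47 and 1.34), Dusp5 (1.30 and 1.35) and Nr4a2 (1.35 and 1.66). For Fosb (0.75 and 1.77) and Fosl2 (0.98 and 1.69) the male pair carried more of the difference. Egr3 gave 0.87 and 2.08, but the ratios include a pseudocount of 0.5 CPM. In WT Egr3 was at 0.186 and 0.688 CPM and Egr2 at 0.124 and 0.362 CPM. At such levels the pseudocount shrinks the ratios, so those of Egr2 and Egr3 are not compared between the pairs. Ier2 was -0.41 in the female and -1.88 in the male pair, since WT replicate 2 had by far the most Ier2 of the 6 libraries. Leaving out WT replicate 2 ended its call (log2 fold change -0.48), and leaving out WT replicate 1 or Y665F replicate 2 reduced the calls from 10 to 4. Btg2 kept its call in 13 of 13 other settings, while Egr2 and Dusp5 lost theirs in 7 of the 13, and Fosl2, Jund, Egr3 and Fosb lost theirs without WT replicate 1 or Y665F replicate 2. Nr4a2 also lost its call without Y665F replicate 2 (log2 fold change 0.99). With DESeq2 the calls of Egr1 and Fosb were also lost.

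**Figure D2:**
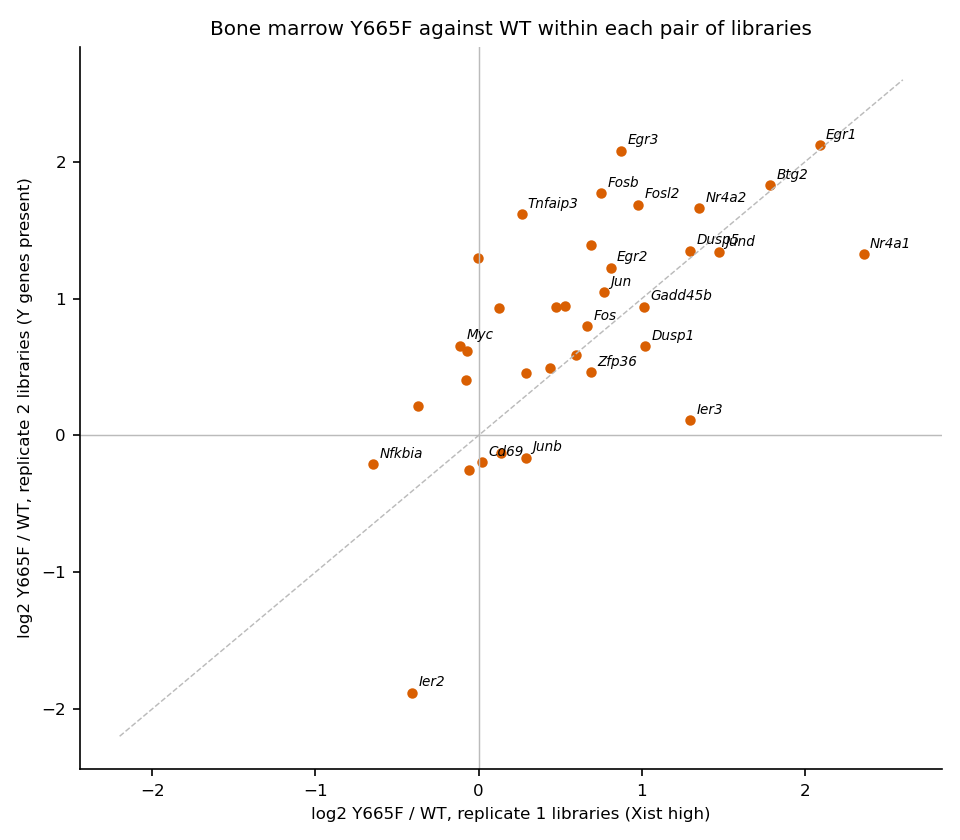
Log2 ratio of Y665F to WT for each of the 35 genes in BM, within the replicate 1 libraries (Xist high, horizontal axis) and within the replicate 2 libraries (Y-linked genes present, vertical axis), with the dashed line at equal ratios. Egr1, Btg2, Jund and Dusp5 lie near the line with ratios above 1, Egr3, Fosb and Tnfaip3 lie above it, and Ier2 lies at -0.41 and -1.88. The pseudocount of 0.5 CPM shrinks the ratios of Egr2 and Egr3, whose levels in WT are near or under it.

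No gene passed between Y665H and WT in BM. This was so for the 35 genes and for all 13923 tested (0.0% called). By the same edgeR test 723 of all genes and none of the 35 had an unadjusted p under 0.05, and DESeq2 also called none of the 35. The median log2 fold change was 0.08 over the 35 genes and -0.01 over all, and it went from -0.32 without WT replicate 1 to 0.57 without WT replicate 2 (30 of 35 higher, 10 with an unadjusted p under 0.05 and 0 called), and to -0.14 without Y665H replicate 2. Both Y665H libraries lay above both WT libraries for 0 of the 35, against 5.03% of all genes, and below for 8 (Ier5, Nr4a3, Btg1, Zfp36l1, Nfkbiz, Ppp1r15a, Rhob and Rel), against 33.8%. The within-pair medians were 0.02 and -0.20 over the 35 genes and -0.33 and -0.10 over all. With 2 libraries a group the interval around each difference was wide, as for Fos at 0.27 ± 0.42.

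To separate part of the change in cell types from the change within them, BM barcodes were put into classes by their own marker UMIs. Over the 5 classes tested there were 18 calls for Y665F, 13 higher and 5 lower. The stem gate (30 of the 35 genes tested) had 1 call, the granulocyte-monocyte (GM) progenitor gate (11 tested) 1, the monocyte gate (29 tested) 3, the erythroid gate (31 tested) 10 and the B lineage gate (28 tested) 3. Over all genes tested 3.57, 4.68, 9.39, 13.8 and 4.58% were called in these classes. In the GM progenitor gate WT replicate 1 had 15 cells and was left out, so that WT stood on 1 library there, assumed to vary like the other groups. For Y665H there was no call of these genes in any class (0.0% of all genes, and 0.0262% in the GM progenitor gate), although in the erythroid gate 28 of the 31 genes tested were higher (46.8% of all genes), with a median of 0.40. Without WT replicate 1 this became 17 of 33, with a median of 0.0088, without Y665H replicate 2 the median was 0.17, and without WT replicate 2 it was 0.96. By unadjusted p under 0.05 (edgeR) there were 0, 2, 1 and 1 list genes for Y665H in the stem, monocyte, erythroid and B lineage gates. Over all genes there were 378 of 9642, 403 of 9632, 166 of 11343 and 268 of 8103. DESeq2 called none of the list genes in any class.

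The fall of Ier2 was called in the 4 classes with both WT libraries, and in the GM progenitor gate against 1 WT library. In the stem gate Ier2 was at 302 and 836 (WT), 547 and 525 (Y665H) and 159 and 130.0 (Y665F) CPM (log2 fold change -2.02 ± 0.44, adjusted p = 0.0191). In the monocyte gate it was at 314 and 544, 521 and 498, and 132 and 107 CPM (-1.89 ± 0.34, adjusted p = 0.00117). In each of these gates Y665F stood below the other 4 libraries, and the monocyte call held in 13 of 13 other settings tried. The values were 176 and 515, 486 and 386, and 109 and 98.7 CPM in the B lineage gate (-1.83 ± 0.45, adjusted p = 0.0315), 91.5 and 199, 187 and 182, and 64.6 and 77.3 CPM in the erythroid gate (-1.27 ± 0.32, adjusted p = 0.0120), and 259 (WT replicate 2 alone), 315 and 363, and 86.3 and 113 CPM in the GM progenitor gate (-1.33 ± 0.39, adjusted p = 0.0208). The erythroid call was lost without WT replicate 2, and the GM progenitor call without Y665F replicate 1, with DESeq2, with no low-count filter and with the replicate number as a block. The stem call was lost without WT replicate 2, Y665F replicate 2 or either Y665H library, and the B lineage call with relaxed gates and without any library but WT replicate 1.

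Egr1 and Btg2 rose in 3 of the 4 classes in which they were tested. Egr1 was at 22.4 and 33.3 (WT), 30.5 and 37.9 (Y665H) and 44.5 and 117 (Y665F) CPM in the monocyte gate (log2 fold change 1.44 ± 0.34, adjusted p = 0.00638). In the B lineage gate it was at 19.6 and 27.4, 19.4 and 37.9, and 56.4 and 172 CPM (2.14 ± 0.49, adjusted p = 0.0279). The stem gate held more Egr1 than these gates in every library, at 55.2 and 104, 58.3 and 87.3, and 108 and 235 CPM, and the difference there was not called. Btg2 was at 12.9 and 12.6, 11.0 and 9.63, and 22.1 and 39.3 CPM in the monocyte gate (1.21 ± 0.32, adjusted p = 0.0129) and at 39.1 and 21.9, 32.4 and 25.9, and 86.2 and 65.8 CPM in the B lineage gate (1.43 ± 0.34, adjusted p = 0.0283). In the stem gate Btg2 was at 18.6 and 34.9, 15.9 and 20, and 36.7 and 62.2 CPM and was not called. Y665F lay above WT without overlap in all of these gates. The monocyte calls of both genes were lost without WT replicate 1 or Y665F replicate 2, the B lineage call of Egr1 without either WT library or Y665F replicate 2, and that of Btg2 without WT replicate 2, Y665F replicate 1 or Y665H replicate 2. Both calls of Btg2 were also lost with DESeq2. RNA of other cell types also differed between the libraries of these gates. The 8 neutrophil markers summed to 11.7 and 13.4 (WT), 23.7 and 6.80 (Y665H) and 163 and 244 (Y665F) CPM in the monocyte gate, and to 8.39 and 388, 30.2 and 13.8, and 574 and 321 CPM in the B lineage gate. The 4 platelet and megakaryocyte markers summed to 16.2 and 23.0, 19.1 and 19.8, and 83.0 and 326 CPM in the monocyte gate, and to 44.7 and 46.6, 104 and 32.8, and 388 and 559 CPM in the B lineage gate. Their part in the calls was not tested.

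In the stem gate the median log2 fold change of the genes tested was 0.01, and 15 of 30 were higher. It was -0.21 without Y665F replicate 2 and 0.45 without WT replicate 2. The 4 platelet and megakaryocyte markers summed to 608 to 1304 CPM over the libraries of this gate, more than in the other gates tested. Their part in these values was not tested. Jund was higher in Y665F in all 5 classes and was called in 1, while Junb, Dusp1, Zfp36, Cd69 and Nfkbia were lower in 4 of the 5 without a call. Fos, not called in the whole libraries, was at 151 and 236 (WT), 186 and 183 (Y665H) and 99.6 and 220.2 (Y665F) CPM in the stem gate.

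The erythroid gate had the most calls, 9 higher and 1 lower (6.01% and 7.76% of all genes tested), and a median log2 fold change of 1.02 against 0.01 over all genes. Without Y665F replicate 2 the median was 0.12, with 19 of 31 higher. In this gate the deviations of same-numbered libraries from their group means correlated at 0.183 to 0.376 in all 3 pairings of genotypes. With the number as a block 16 list genes rose and 1 fell. The share of all genes called with that block is not given here. Egr1 was at 7.87 and 24 (WT), 13.5 and 24 (Y665H) and 40.0 and 121 (Y665F) CPM (1.98 ± 0.47, adjusted p = 0.00902). Jund was at 25.4 and 38.2, 31.8 and 43.3, and 66.4 and 115 CPM (1.25 ± 0.28, adjusted p = 0.00658). The other 7 were Fosb (2.04), Gadd45b (1.95), Btg2 (1.93), Nr4a2 (1.43), Jun (1.42), Tnfaip3 (1.41) and Rel (1.08), with adjusted p between 0.0165 and 0.0428. In 7 of these 9 genes the CPM of Y665F replicate 2, with no pseudocount, was over 2-fold that of Y665F replicate 1. Leaving out Y665F replicate 2 ended every one of the 9 higher calls, and leaving out WT replicate 1 ended 7 of them. With DESeq2 the higher calls fell to 4, and Egr1 was not among them. Fosb, for example, was at 2.38 and 6.95 CPM in WT and at 5.69 and 47.3 CPM in Y665F, Gadd45b at 0.915 and 0.632 and at 2.49 and 4.44 CPM, Tnfaip3 at 3.84 and 1.62 and at 5.22 and 10.9 CPM, and Rel at 6.96 and 8.66 and at 13.2 and 27.1 CPM.

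The makeup of the erythroid gate moved with these calls. The summed erythroid markers (7 genes) were at 6955 and 9275 (WT), 8475 and 7094 (Y665H) and 2788 and 1569 (Y665F) CPM. The 5 GM progenitor markers were at 343 and 363, 465 and 579, and 599 and 1209 CPM, the 4 platelet and megakaryocyte markers at 31.8 and 42.2, 47.4 and 59.8, and 99.2 and 372 CPM, and the 8 neutrophil markers at 7.14 and 9.30, 23.4 and 25.4, and 133 and 204 CPM. Y665F replicate 2 was the library with the least erythroid and the most other marker RNA in this gate. The part of this makeup in the calls was not tested.

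**Figure D3:**
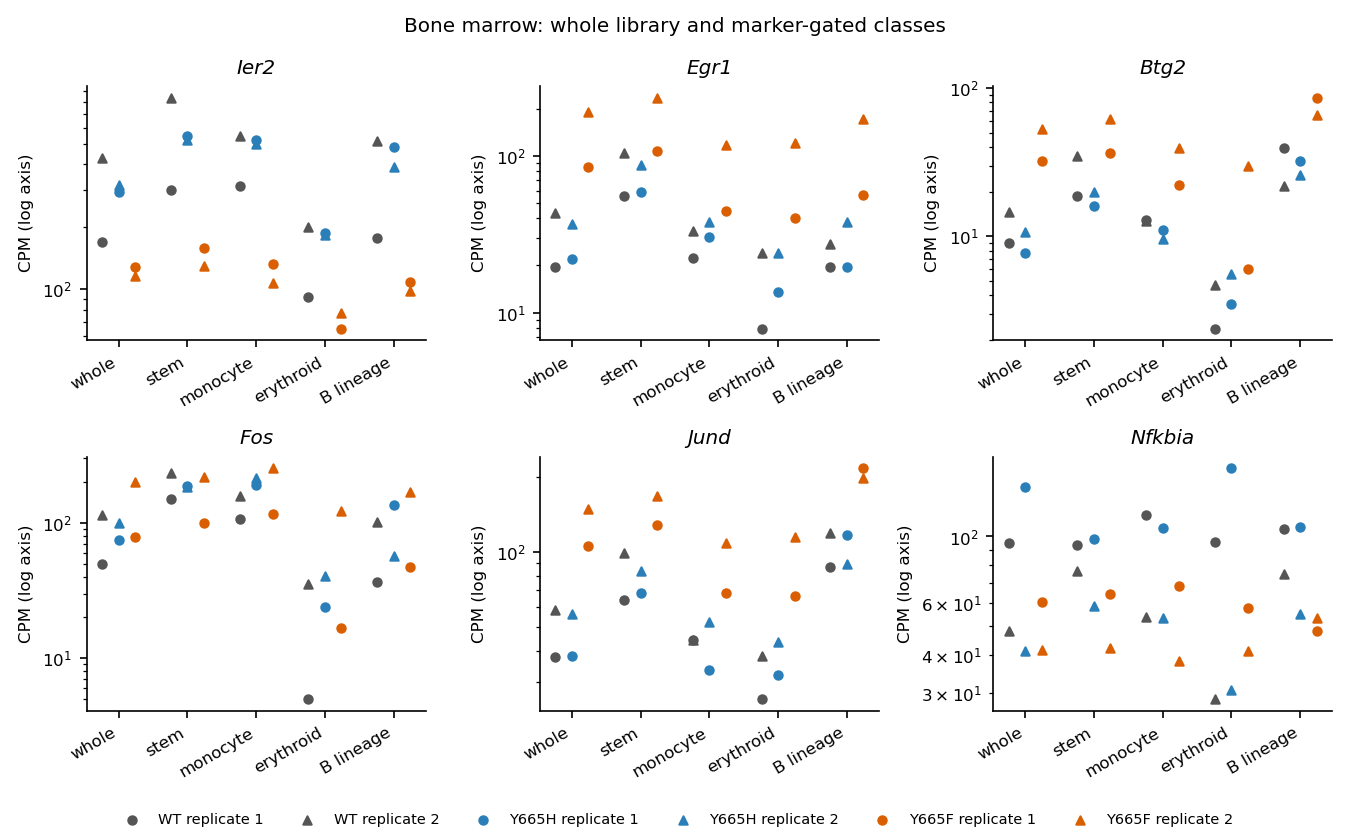
Levels of Ier2, Egr1, Btg2, Fos, Jund and Nfkbia in the whole BM library and in 4 marker-gated classes, in CPM on log axes that differ between panels, with circles for replicate 1 and triangles for replicate 2 of each genotype. Ier2 of both Y665F libraries is the lowest in the whole library and in every class shown, Egr1 and Jund of Y665F lie above WT, and in the whole library Fos is higher and Nfkbia lower in replicate 2 of each genotype.

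Genes of the same pathways outside the list are read against the same 8.1% higher and 8.66% lower calls over all genes. Of 10 heat shock genes 1 rose and 1 fell in Y665F, and the median log2 fold change was -0.40. Hspa1a, the inducible HSP70, was at 0.310 and 1.48 (WT), 3.51 and 12.6 (Y665H) and 2.95 and 6.17 (Y665F) CPM (1.97 for Y665F, adjusted p = 0.0255; 3.23 ± 0.63 for Y665H, adjusted p = 0.579), and Hspd1, a mitochondrial chaperone, fell by 1.22. In Y665H none of the 10 was called, while 10 of 10 were higher than WT in the whole libraries (median 0.54, 48.9% of all genes higher), as were 8 of 8 in the stem gate, 6 of 7 in the GM progenitor gate, 10 of 10 in the monocyte gate, 9 of 10 in the erythroid gate and 8 of 8 in the B lineage gate. Of 7 other AP-1 and ATF genes tested none was called (median 0.29), and of 8 other NF-kB genes Nfkbib, a further NF-kB inhibitor, fell (-1.25, median of the group -0.12). Of 17 other MAP kinase-induced genes 4 rose and 1 fell, with a median of 0.72. Bhlhe40, a circadian and cytokine-regulated repressor, was at 0.992 and 0.652 (WT), 0.755 and 0.926 (Y665H) and 3.78 and 4.01 (Y665F) CPM (2.11, adjusted p = 0.000745). Klf2, a quiescence factor of lymphocytes, was at 10.1 and 35, 18 and 20.1, and 7.06 and 12.8 CPM (-1.46, adjusted p = 0.0214), so that like Ier2 it was highest in WT replicate 2.

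In LN the 35 genes together ran from 7524 to 8694 CPM over the 7 libraries. None of the 34 genes tested was called in homo or het against WT at the same limits (edgeR), where 2.31% and 0.767% of 11471 genes were. With the limit on size lifted, 6 of the 34 had an adjusted p under 0.05 in homo (4.6% of all genes) and 1 in het (1.65%). By unadjusted p under 0.05 (edgeR) there were 14 of the 34 in homo and 9 in het, against 2342 and 1711 of all 11471 genes. DESeq2 called none in either comparison. The median log2 fold change was 0.13 in homo and -0.03 in het. The 6 genes of homo with an adjusted p under 0.05, given next, became 0 without WT replicate 1, 1 without either homo library, and 2 with the replicate number as a block. The 1 of het became 0 with the block, and 0 without any library but WT replicate 2. The makeup of the libraries moved with these values. The B gate took 43.7 and 26.6% (WT), 20.8, 24 and 13.1% (het) and 11.1 and 16.1% (homo) of the barcodes, and the CD8 T gate 17.0 and 25.5%, then 36.4, 32.9 and 19.1%, then 22.6 and 31.7%. Gates need marker UMIs, so these shares also depend on depth. In the shallow het replicate 3 and homo replicate 1 only 34.6 and 36.0% of barcodes met any gate. The remaining LN libraries had 55.6 to 73.1%. The 4 B cell markers summed to 1023 to 3042 CPM over the 7 whole libraries, with both WT libraries highest. As in marrow, more cells of a type and more RNA per cell cannot be told apart in the whole libraries.

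Higher in homo at that adjusted p, but by less than the limit on size, were Dusp5, Myc, Ppp1r15a and Ier2. Dusp5 was at 45.5 and 55.7 CPM in WT, 61.1, 57.4 and 56.0 CPM in het and 83.7 and 77.7 CPM in homo (log2 fold change 0.76 ± 0.12, adjusted p = 0.00807). Myc was at 98.3 and 122 CPM in WT, 166, 148 and 149 CPM in het and 187 and 165 CPM in homo (0.76 ± 0.12, adjusted p = 0.00886; het 0.58 ± 0.11, adjusted p = 0.0345). Neither gene overlapped between WT and the mutant groups. Ppp1r15a, the GADD34 subunit that reverses the eIF2alpha stress block on translation, was at 238 and 276, then 292, 272 and 316, then 326 and 401 CPM (0.59 ± 0.13, adjusted p = 0.0327). Ier2 was at 220.0 and 249, then 253, 239 and 287, then 315 and 321 CPM (0.53 ± 0.11, adjusted p = 0.0242), the opposite sign to marrow.

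Lower in homo on the same terms were Nr4a1 and Rel. Nr4a1 was at 44.6 and 42.5 CPM in WT, 31.9, 33.4 and 26.5 CPM in het and 23.3 and 25.6 CPM in homo (-0.73 ± 0.15, adjusted p = 0.0242). Rel was at 178 and 133, then 99.4, 104 and 94.8, then 92.7 and 96.6 CPM (-0.63 ± 0.15, adjusted p = 0.0466). Het lay between WT and homo for Nr4a1, and het and homo lay close together for Rel.

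Other genes followed in every library had no adjusted p under 0.05 in LN. Fos was at 214 and 209 CPM in WT, 162, 170.2 and 209 CPM in het and 176 and 218 CPM in homo (-0.00 ± 0.14 for homo). Jun was at 247 and 313, then 285, 255 and 294, then 301 and 375 CPM. Junb, the most abundant AP-1 gene here, was at 1005 and 1363, then 1147, 1146 and 1274, then 1372 and 1606 CPM (adjusted p = 0.147 for homo). Egr1 was at 120.1 and 124, then 101, 111 and 111, then 109 and 91.9 CPM (-0.20 ± 0.11 for homo). Dusp1 was at 131 and 167, then 139, 125 and 131, then 127 and 176 CPM. Zfp36 was at 459 and 471, then 374, 425 and 509, then 445 and 514 CPM. Btg2, Nfkbia and Cd69 ranged from 277 to 389.9 CPM, 389 to 477 CPM and 215 to 324 CPM over the 7 libraries and were not called. Both homo libraries were above both WT libraries for Junb, and below both for Egr1 and Cd69.

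Among the LN gates the one call of a list gene was Dusp5 in CD8 T cells. It was at 34.2 and 34.4 CPM in WT, 54.0, 50.6 and 54.2 CPM in het and 87.3 and 75.4 CPM in homo. The groups were ordered WT, het, homo with no overlap, with log2 fold changes of 1.26 ± 0.16 in homo (adjusted p = 2.45e-05; 1.3% of all genes called) and 0.68 ± 0.14 in het (adjusted p = 0.0118, inside the limit on size; 0.523% called). The homo call held in 15 of 15 other settings. The CD8 T gate does not separate naive, effector and memory cells. By the study's account Y665F mice had relatively more central memory and fewer naive CD8 T cells in the spleen. The part of such subsets in the Dusp5 difference was not tested. In the CD4 T gate Dusp5 was at 60.6 and 91.7, then 74.4, 72.7 and 33.1, then 88.0 and 83.3 CPM, and in the B gate at 27.8 and 26.9, then 26.7, 15 and 16.6, then 28.5 and 29.0 CPM, and it was called in neither. Whether the difference of Dusp5 itself differed between gates was not tested. Myc in CD8 T cells was at 117 and 147, then 203, 184 and 161, then 208 and 187 CPM (homo 0.59, adjusted p = 0.0298; het 0.54, adjusted p = 0.0355). With the limit on size lifted, 1.95% (homo) and 0.962% (het) of all genes passed in that gate.

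The CD4 T gate held no call in homo (0.406% of all genes called, 0.563% at any size) or het (0.234 and 0.344%). There Ppp1r15a was at 352 and 387 CPM in WT, 418, 379 and 380.4 CPM in het and 563 and 627 CPM in homo, the one list gene with an adjusted p under 0.05 (0.76 ± 0.17, adjusted p = 0.0138). The B gate held none in homo (0.011% of all genes called, the same share at any size) or het (0.0769 and 0.0879%). In both gates edgeR was the test. In the CD4 T gate 10 (homo) and 2 (het) of 27 list genes had an unadjusted p under 0.05. Over all 6398 genes of that gate 526 and 399 did. In the B gate 6 (homo) and 5 (het) of 30 list genes did, against 692 and 571 of all 9102 genes.

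**Figure D4:**
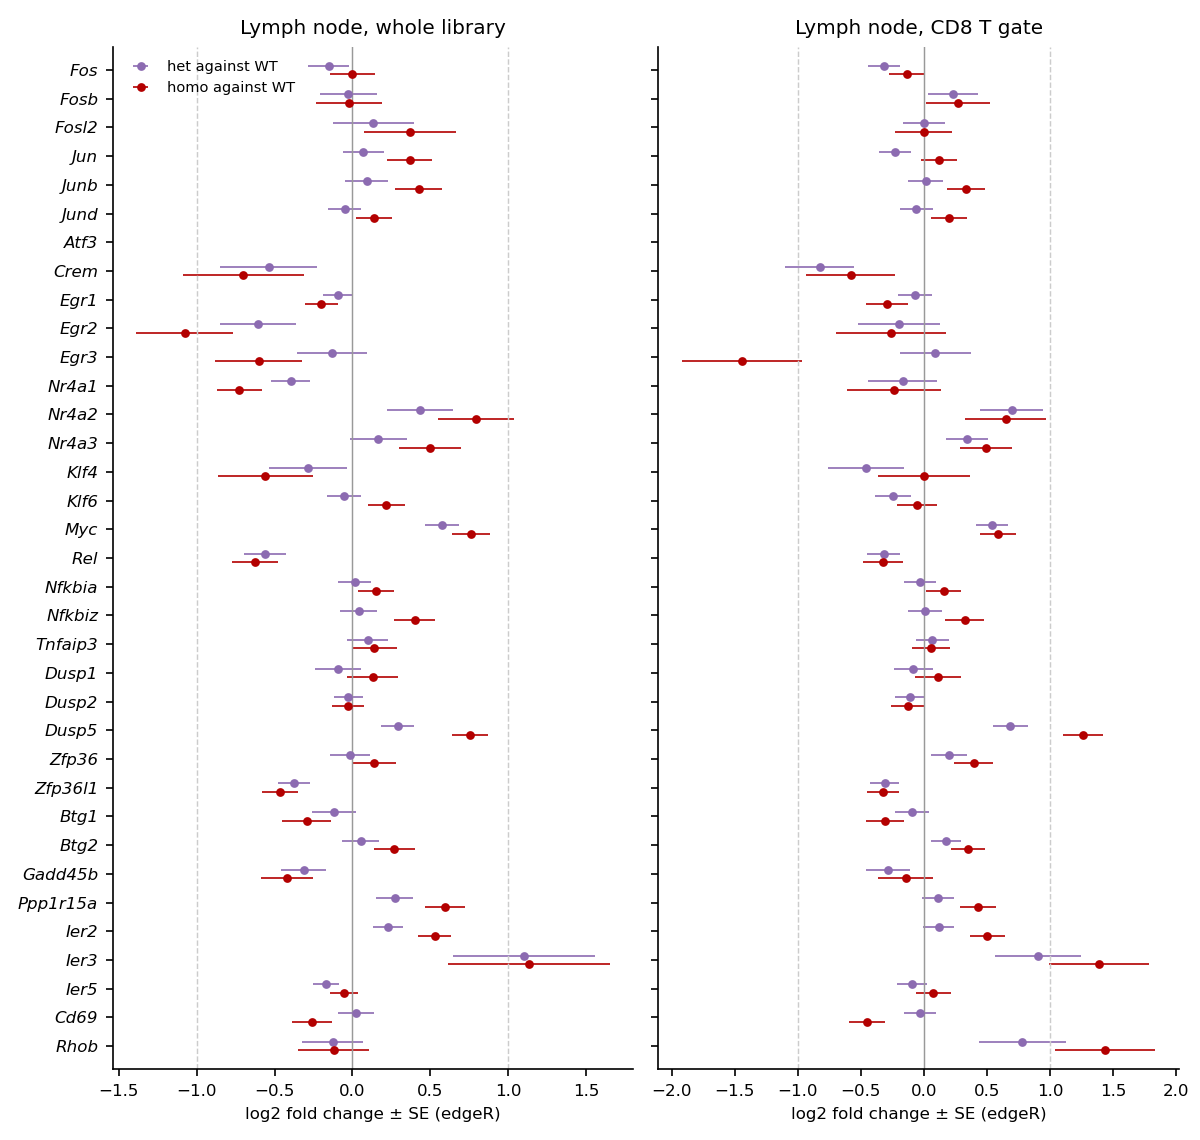
Log2 fold change and its SE (edgeR) of the genes tested in LN, het (purple) and homo (red) against WT, in the whole library and in the CD8 T gate, with dashed lines at the limit on size. Dusp5 in the CD8 T gate is the one called point, at 1.26 in homo and 0.68 in het. Ier3, Rhob and Egr2, which also pass a dashed line, have wide errors and were not called. Egr3 of homo in the CD8 T gate lies past the lower dashed line, at -1.44, and was not called either.

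Of genes outside the list, 3 that fell in LN are given. Dusp4, a phosphatase for ERK and JNK, was at 16.3 and 14.3 CPM in WT, 7.89, 9.18 and 8.85 CPM in het and 4.34 and 5.44 CPM in homo (-1.49 ± 0.22, adjusted p = 0.00727). Dusp6, the cytoplasmic phosphatase for ERK, was at 28.8 and 34.7, then 26.6, 25.6 and 23.5, then 12.9 and 11.6 CPM in the CD8 T gate (-1.39 ± 0.24, adjusted p = 0.00119), where Dusp5 was higher. Bcl3, an atypical NF-kB inhibitor family member, fell in whole libraries (homo -1.23 ± 0.30, adjusted p = 0.0481) and in the CD8 T gate (homo -1.37, adjusted p = 0.0114; het -1.16, adjusted p = 0.00549). In whole homo libraries the lists outside the 35 genes held 1 lower call of 17 genes (MAP kinase-induced), 1 of 8 (NF-kB), 0 of 8 (AP-1 and ATF) and 0 of 10 (heat shock), and no higher call, against 2.31% of all genes called in either direction. Of the heat shock genes 0 of 10 were higher, with a median of -0.34, against 50.3% of all genes.

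In spleen, with 1 library a genotype, there is no test, and intervals cover counting error only. In all, 5 of the 35 genes were more than 2-fold higher in Y665H than in WT and none was lower, against 9.18% of all genes in either direction and 7.44% higher. Fos was at 71.4 CPM in WT and 212 CPM in Y665H, a ratio of 2.98 (95% interval 2.86 to 3.10), and at 67.1 CPM in Y665F. Dusp1 was at 46.9, 148 and 47.2 CPM in WT, Y665H and Y665F (3.17, 3.01 to 3.33, for Y665H). For both genes only the Y665H library stood more than 2-fold from WT. Atf3 was at 1.14, 5.81 and 1.15 CPM, Fosl2 at 13.5, 28.3 and 22.5 CPM and Ier3, a survival factor, at 5.50, 17.0 and 21.9 CPM. Of the other genes followed in every library, Junb was at 295, 431 and 213 CPM, Jun at 173, 244 and 129 CPM, Zfp36 at 100.5, 148 and 69.6 CPM, Nr4a1 at 19.1, 26.3 and 11.2 CPM and Btg2 at 309, 369.9 and 247 CPM. For each of these Y665H was highest and Y665F lowest. The order was the same for Ier2 (125, 158 and 117 CPM), Nfkbia (213, 235 and 169 CPM) and Cd69 (308, 313 and 235 CPM), over a smaller range.

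The median log2 ratio to WT was 0.23 in Y665H (27 of 35 higher), against -0.00 over all genes (49.8% higher), and -0.34 in Y665F (11 of 35 higher), against -0.19 over all genes (29.7% higher), a count of the list near that of all genes. In Y665F 1 gene, Ier3, was more than 2-fold higher and 1, Egr3, more than 2-fold lower (32.9 to 14.4 CPM, ratio 0.437, 0.395 to 0.484), against 12.7% of all genes. Egr1 was at 57.7, 82.4 and 34.5 CPM and Myc at 33.1, 30.1 and 55.7 CPM.

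Within lymphocyte gates Fos was at 31.4 and 76.9 CPM in CD8 T cells of WT and Y665H (2.45, 2.12 to 2.84), 34.4 and 79.2 CPM in CD4 T cells (2.30, 1.96 to 2.71), 90.2 and 138 CPM in B cells (1.53, 1.36 to 1.71) and 59.2 and 70.9 CPM in NK cells (1.20, 0.823 to 1.75). Dusp1 was at 19.6 and 37.9, 25.6 and 56.9, and 21.4 and 51.0 CPM in CD8 T, CD4 T and B cells. Past 2-fold in Y665H were 3 of 35 list genes in the CD8 T gate (6.87% of all genes), 5 of 34 in CD4 T (5.44%), 4 of 34 in B (5.62%) and 3 of 31 in NK (6.55%), and all of these were higher. In Y665F 3 of 34 were past 2-fold in CD8 T (Egr1, Egr2 and Egr3, lower; 8.22% of all genes), 4 of 34 in CD4 T (Ier3, Nr4a2, Fosb and Rhob, higher; 7.75%), 1 of 31 in B (Egr1, lower; 5.43%), and 6 of 29 in NK, of which 2 were higher and 4 lower (9.9%). Egr1 was at 39.7 and 17.8 CPM in CD8 T cells (0.449, 0.381 to 0.530), 54.9 and 37.5 CPM in CD4 T cells (0.683, 0.564 to 0.825) and 62.6 and 26.3 CPM in B cells (0.421, 0.321 to 0.545). Myc, which stayed inside 2-fold, was at 43.3 and 70.3 CPM (1.62, 1.44 to 1.83), 22.3 and 43.6 CPM (1.95, 1.56 to 2.45) and 28.6 and 50.9 CPM (1.78, 1.40 to 2.26). Dusp5 was at 17.6, 19.6 and 31.0 CPM in CD8 T cells of WT, Y665H and Y665F.

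RNA of other cell types also differed between the spleen libraries. The 8 neutrophil markers summed to 1505, 13459 and 27868 CPM in the whole WT, Y665H and Y665F libraries. Inside the gates they summed to 92.9, 4422 and 3531 CPM (CD8 T), 22, 1635 and 2346 CPM (CD4 T), 113, 3464 and 942 CPM (B) and 23.9, 379.7 and 396 CPM (NK). The neutrophil gate itself (46, 260 and 144 cells, or 0.670, 3.24 and 2.86% of barcodes) had more Fos and Dusp1 than any other gate of the same library, with Fos at 2322, 2602 and 528 CPM and Dusp1 at 2152, 2439.8 and 459 CPM. The neutrophil markers were highest in Y665F in the whole libraries and in the CD4 T and NK gates, and in Y665H in the CD8 T and B gates. Hemoglobin genes summed to 613, 6351 and 21.0 CPM in the whole libraries, 11.9, 1607 and 2.40 CPM in the CD8 T gate and 16.4, 1354 and 8.78 CPM in the B gate. These sums were each highest in Y665H. GM progenitor markers summed to 0.149, 21.1 and 402 CPM in the whole libraries. The part of these RNAs in the values of the lymphocyte gates was not tested.

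In the neutrophil gate Y665F lay far below WT. The 35 genes together took 19821 (WT), 20317 (Y665H) and 5131 (Y665F) CPM. Of 26 genes measured 19 were more than 2-fold lower in Y665F than in WT, 0 more than 2-fold higher, and all 26 lower to some degree, with a median log2 ratio of -1.85. Over all 6315 genes 30.3% were past 2-fold, 24.1% lower, with a median of -0.48. The ratio to WT was 0.228 (0.199 to 0.260) for Fos, 0.164 (0.145 to 0.187) for Junb at 2966 and 488 CPM, 0.157 (0.128 to 0.194) for Jund, 0.213 (0.185 to 0.246) for Dusp1, 0.243 (0.212 to 0.278) for Btg2 and 0.211 (0.167 to 0.267) for Egr1. Nfkbia was nearly level, at 190.1 and 178 CPM. In Y665H 2 of 29 genes were past 2-fold higher and 2 lower, against 11.0% of all genes, with a median of 0.02.

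The neutrophil gate also differed between libraries in its own markers. Camp, Ngp and Ltf, granule proteins of immature neutrophils, were at 6761, 4417 and 29074 CPM (Camp), 6734, 4708 and 31823 CPM (Ngp), 1867, 1648 and 12599 CPM (Ltf) in WT, Y665H and Y665F, and Retnlg, a gene of mature neutrophils, was at 8383, 10711 and 7026 CPM. The granule genes were highest in Y665F. Retnlg was lowest there, but from WT it fell by less than the median gene of this gate (log2 ratio -0.48 over all genes). The 8 markers that define the gate, these genes among them, summed to 197206, 200943 and 364447 CPM in WT, Y665H and Y665F. The share of mature cells was not tested. Only 46 WT cells stand behind these values, and maturity, genotype and library cannot be told apart.

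**Figure D5:**
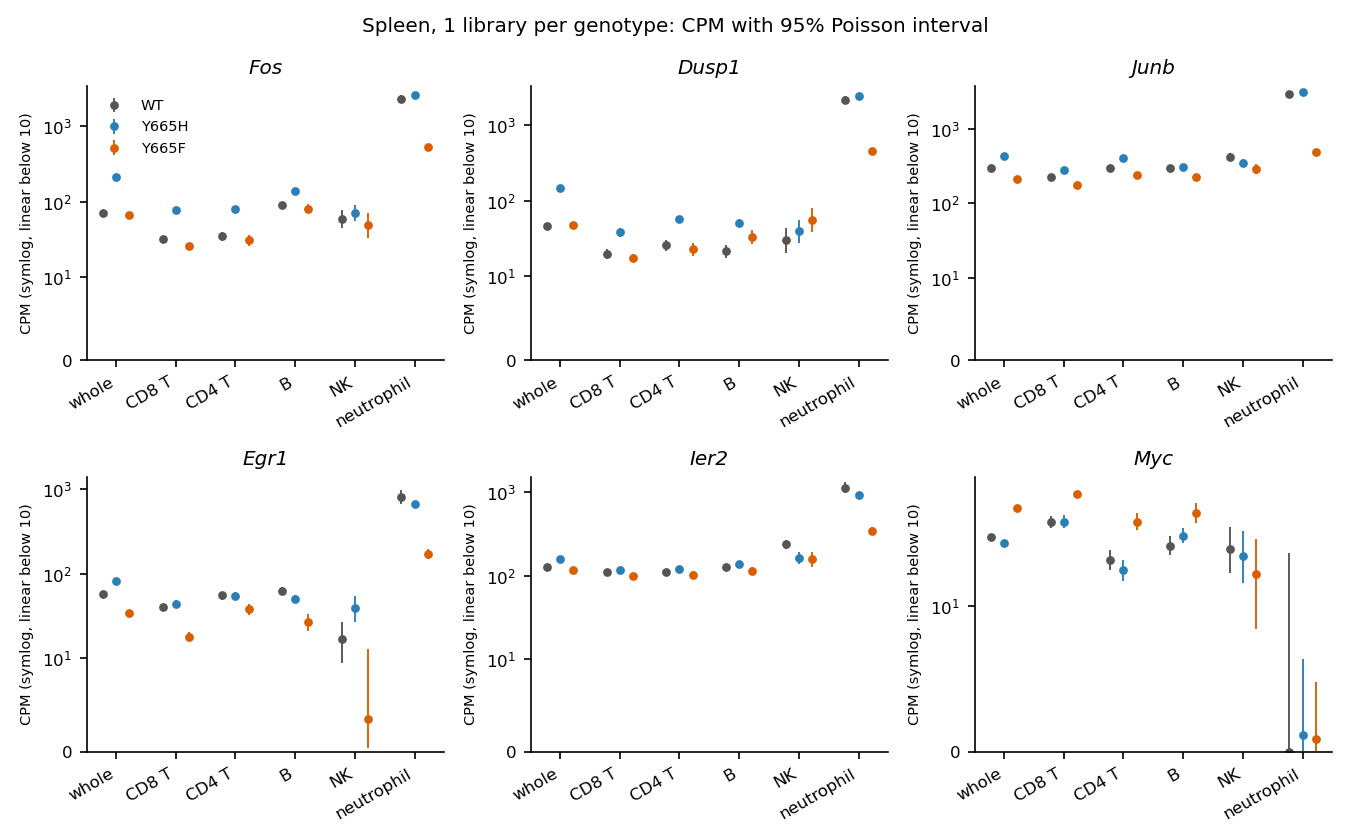
Levels of Fos, Dusp1, Junb, Egr1, Ier2 and Myc in the spleen libraries, whole and in 5 marker-gated classes, in CPM on an axis that is linear below 10 and logarithmic above, with bars for the 95% Poisson interval of each count. Fos and Dusp1 of Y665H lie above WT in the whole library and in the CD8 T, CD4 T and B gates, and in the neutrophil gate the Y665F points of Fos, Dusp1, Junb, Egr1 and Ier2 lie far below the other genotypes.

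The 35 genes were placed on GRCm38 by the GENCODE annotation, and 10 of them overlapped a gene on the other strand. Among those named most, Ier2 lies at chr8:84661331-84662852 (minus strand), Btg2 at chr1:134075170-134079120 (minus strand), Fos at chr12:85473890-85477273 (plus strand), Jund at chr8:70698949-70700616 (plus strand, opposite Gm11175) and Dusp5 at chr19:53529109-53542431 (plus strand, opposite AC137853.2). Dusp1 overlapped AC122252.4 and AC122252.1 on its own strand, so that its UMI count may be affected by the overlap.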

How the data were processed

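The 16 expression libraries were 10x Genomics libraries for which the authors deposited filtered UMI counts per gene and barcode, aligned to GRCm38 with Cell Ranger (version 5.0 with Seurat 4.0 by the submitters' processing notes, build mm10). The 7 libraries of T-cell receptor sequences were not used. Total counts kept per library ran from 2372988 to 55554584 UMIs, which limits low genes most in the shallow LN libraries.

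Barcodes needed a minimum of 200 detected genes and no more than 10% mitochondrial UMIs, and counts were summed per library and per class of barcodes gated on marker UMIs. No doublet caller was run. Barcodes meeting 2 BM gates were left out, as was any library with under 20 cells of a class. Sums were tested with the edgeR (4.0.16, R 4.3.3) quasi-likelihood test, TMM scaling, filterByExpr and Benjamini-Hochberg adjustment over all genes tested, fitted to each tissue as a whole. Calls needed an adjusted p below 0.05 together with a log2 fold change beyond 1 in either direction. On simulated counts 98.0% (BM) and 97.5% (LN) of 200 changed genes were recovered, with 17 and 11 false calls. The changed genes excluded those at low levels, and their changes were all larger than the limit on size. Noise was drawn independently, with no shift shared by libraries of the same number. The recovery therefore does not cover low genes, smaller changes or such shifts. Library log2 ratios used a pseudocount of 0.5 CPM. Spleen ratios used genes with at least 10 UMIs in 1 of the 2 libraries, counts under 3 set to 3, and exact 95% intervals that cover counting error only.

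Replicate numbers are also the sex of the BM libraries. Same-numbered deviations correlated over 0.1 in all 3 pairings of genotypes only in the erythroid gate. There the counts with a block are given beside the fit without it, from which the fold changes and p-values come.

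The members, gene lists and alternatives were chosen with earlier results of these data known. Named with every library's value are genes called in any fit (up to 15 by size) and Fos, Jun, Junb, Egr1, Dusp1, Nr4a1, Zfp36, Cd69, Myc, Nfkbia and Btg2, with up to 3 from each companion list. Alternatives were DESeq2 (1.42.0), RLE size factors, no low-count filter, 500 genes per barcode, all deposited barcodes, no heavy barcodes, relaxed gates, a replicate block and leaving out each library, and, chosen after seeing the data, both shallow LN libraries left out and ratios within each sex. Sequences are from RefSeq tables, and gene positions from GENCODE.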

Additional observations from a re-analysis of the deposited data

Results flagged for a closer look

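Of the 35 genes, 9 lay on opposite sides of WT in Y665F marrow and in homo lymph node, with every mutant library of one tissue above and every mutant library of the other below the WT libraries of its own tissue. The same pattern was held by 9 of the 34 with at least 50 UMIs in both tissues and by 20.6% of all 11044 such genes. The count of the list was thus near that of all genes. The difference between the tissues was not tested, and the marrow labels do not give the number of mutant alleles. Log2 fold changes in marrow and in lymph node were 1.88 and -0.20 for Egr1, 1.75 and -1.08 for Egr2, and 2.22 and -0.60 for Egr3, all of which rose in marrow by the edgeR test and were not called in lymph node. They were 0.88 and -0.42 for Gadd45b, 0.39 and -0.29 for Btg1, 0.38 and -0.03 for Dusp2, 0.29 and -0.63 for Rel, and 0.20 and -0.05 for Ier5. Ier2 was the one gene of the 9 in the other order, at -1.54 in marrow and 0.53 in lymph node.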

How the results depend on the processing

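No called gene turned sign under the alternatives run, but the median over the list did in at least 1 alternative in 13 of 20 comparisons, among them LN homo in whole libraries (0.13 to -0.0070 without homo replicate 2). Most counts of list genes under an alternative, above and below, are given without the share of all genes in the same setting. Such counts do not show whether the list changed more than other genes. For Y665F in marrow, the 10 calls in whole libraries became 6 with DESeq2 and 4 to 18 with 1 library left out (4 without WT replicate 1, 18 without WT replicate 2, 4 without Y665F replicate 2). The 18 calls over marrow gates became 10 with DESeq2 and 4 to 37 with 1 library left out (9 without WT replicate 1, 37 without Y665F replicate 1, 4 without Y665F replicate 2). For Y665H in marrow there were 0 calls in whole libraries throughout, and over gates 0 to 5 (5 without WT replicate 2). Of the called genes, Btg2 in whole libraries, Ier2 in the monocyte gate and Dusp5 in LN CD8 T cells kept their call in every alternative.

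For homo in LN the 0 calls in whole libraries became 1 at 500 genes per barcode, 2 with no low-count filter, 0 to 2 with 1 library left out (2 without LN WT replicate 2) and 6 by adjusted p alone, and the 1 call over gates became 3 with no filter, 2 with relaxed gates, 3 by adjusted p alone and 1 to 3 with 1 library left out (2 without WT replicate 1, 3 without het replicate 3). For het the 0 calls in whole libraries became 1 with no filter and 1 by adjusted p alone, and over gates 2 by adjusted p alone. The counts of list genes past 2-fold in the whole spleen libraries did not change under the alternatives run. Those of the spleen gates are not given under them.

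The main fits did not take replicate numbers as pairs in any gate, the erythroid gate included. In marrow, differences shared by libraries of the same number (and sex) therefore remain in the spread that the p-values rest on. Deviations of libraries with the same number correlated at 0.0502 to 0.331 in whole marrow libraries, 0.183 to 0.376 in the erythroid gate, -0.123 to 0.240 in other marrow gates and -0.116 to 0.0746 in whole LN libraries. With the number as a replicate block, calls for Y665F were 11 in whole marrow and 28 over its gates, and 2 over LN gates in homo. Groups of 2 libraries, the low depth of 2 LN libraries and single spleen libraries limit what could be detected.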
